A study of Mus musculus with 13 samples.

Results

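Clone 1 is 1 of 4 mouse induced pluripotent stem (iPS) clones, and its 2 arrays were compared with the 6 arrays of clones 2, 5 and 6, out of 13 arrays of 7 lines in all. The 2 sides were chosen by the array titles. The question is what is particular to clone 1 among clones made in the same way. Each of the other 3 clones was given equal weight. The description covers 14408 annotated autosomal rows, that is rows of the deposited table with exactly 1 gene symbol, placed on an autosome, and holds 14276 distinct symbols.

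All 4 clones have the strain label C57Bl/6. Their titles name MPSVII, mucopolysaccharidosis type VII, a lysosomal storage disease of the enzyme beta-glucuronidase, while their source and growth fields name wildtype B6 embryonic fibroblasts; which of these holds could not be settled from the labels. Fibroblasts were transduced with a lentivirus named OSK, and single colonies were picked and grown on layers of feeder fibroblasts (MEF), so RNA of feeder cells can be part of any clone array. The lines used as landmarks are the MEF (2 arrays, same strain label and same conflict), the MPSVII ES cells (2 arrays, strain C57Bl/6) and the B6 Blu ES cells (1 array, strain C57BL/6NTac), ES standing for embryonic stem. Each line of iPS cells is a single clone. No label says that the 2 arrays of a line came from separate cultures, so the p-values measure the spread between these arrays, which may be technical.

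As background, reprogramming factors make a body cell resemble ES cells, in which genes such as Pou5f1, Nanog and Sox2 keep the cell able to form every tissue. Clones picked from one dish descend from different founder cells, and they are known to differ in the sites of virus integration, in methylation marks left over from the founder or lost in culture, and in how far they lean towards early or later embryonic states. Genes of the germ line, imprinted genes and stress-response genes are among those that are known to vary between pluripotent lines.

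Values are log2 signal on Affymetrix Mouse Exon 1.0 ST arrays. The medians of the arrays lay between 3.97 and 4.45. The interquartile ranges were 2.17 and 2.39 on the arrays of clone 1, 2.17 and 1.96 in clone 5, 2.00 and 2.30 in clone 6, and 1.88 and 1.70 in clone 2. The arrays of clone 2 had the narrowest spread of signal, and those of clone 1 had a wider one. This touches every comparison with clone 2.

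The check of the label came first. The mean log2 signal of 10 measured pluripotency markers was 8.07 and 7.97 in clone 1, within the range of the other clones (7.15 to 8.19), against 3.51 and 3.56 in MEF. The 12 fibroblast markers averaged 4.89 and 4.97 in clone 1, within the 4.77 to 5.66 of the other clones, against 8.88 and 8.36 in MEF. The 9 macrophage markers averaged 4.16 and 4.16, against 3.89 to 4.16 in the other clones and 9.24 and 8.64 in MEF. By these markers clone 1 lay with the other clones. Fewer cells of a type and less RNA per cell cannot be told apart in such samples.

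As deposited, few rows passed the test of clone 1 against the other clones, and the count moved with the settings given below. A row was called when the limma fit gave a Benjamini-Hochberg adjusted p under 0.05 for clone 1 minus the mean of the other clones. This held for 83 of the 14408 rows (0.576%), of which 77 were higher in clone 1 (0.534%) and 6 lower (0.0416%). A row was named set apart when, in addition, both clone 1 arrays lay beyond all 6 arrays of the other clones. That left 57 rows higher (0.396%) and 4 lower (0.0278%), 61 in all (0.423%). Over all 16661 rows tested there were 97 calls (0.582%), 87 higher (0.522%) and 10 lower (0.06%). The second condition of set apart alone held for 1358 rows (9.43%), 854 higher (5.93%) and 504 lower (3.5%). An unadjusted p under 0.05 by limma held for 2197 of the 14408 rows (15.2%).

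For scale, the same comparison made for each of the other clones called 1708 rows for clone 2 (11.9%), 49 for clone 5 (0.34%) and 163 for clone 6 (1.13%). These 4 comparisons share all 8 clone arrays. As deposited, clone 1 therefore had more calls than clone 5 and fewer than clones 2 and 6, without a test of that order. The order changed with the settings given below. After the intensity-dependent normalization clone 1 had the fewest calls (60), and with array weights it had more than clone 6 (281 against 200).

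The calls depend on the arrays compared and fitted. With clone 2 left out of the other side, so that clone 1 was set against the mean of clones 5 and 6 in the same fit of 13 arrays, limma called 0 rows (0%); 1012 rows (7.02%) had an unadjusted p under 0.05, and the lowest adjusted p was 0.217. When the 8 clone arrays were fitted without MEF and ES cells, 1 of the 14408 rows was called, Pramel7, with 2044 rows at an unadjusted p under 0.05. Without replicate 1 of clone 1 there were 0 calls (2059 rows unadjusted), and without replicate 2 there were 0 (790 rows unadjusted).

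The largest increase was in Txnip on chromosome 3, which encodes the thioredoxin-interacting protein, a brake on thioredoxin and on glucose uptake whose transcription is known to follow glucose. Its log2 signal was 9.55 and 9.81 on the clone 1 arrays, 9.47 and 9.00 in clone 5, 7.26 and 7.92 in clone 6, and 6.20 and 5.55 in clone 2. The ES arrays gave 7.58 and 7.76 (MPSVII) and 6.15 (B6 Blu), and MEF 8.32 and 7.99. Clone 1 was highest, clone 5 close behind it, and clone 2 about as low as B6 Blu ES. The difference from the mean of the other clones was 2.12 ± 0.24 (SE; adjusted p = 0.0169), which is 4.34-fold. Against clone 2 it was 3.81 (adjusted p = 0.000227), against clone 6 it was 2.10 (adjusted p = 0.0262), and against clone 5 it was 0.45 (adjusted p = 0.773).

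The 120 bases before the start of Txnip are printed because they hold a match to the carbohydrate response element, through which glucose is known to act on this gene. Capitals mark the match to the pattern searched, CACGNG followed by any 5 bases and CACGNG again, whose first base lies 85 bases before the start.
Txnip, chr3:96557837-96557956, plus strand: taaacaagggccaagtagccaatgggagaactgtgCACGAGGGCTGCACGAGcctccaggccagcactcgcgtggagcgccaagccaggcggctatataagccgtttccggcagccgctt
Searched on both strands of the 250 bases before the start, this pattern stood in 14 of 27025 RefSeq promoters (0.0518%). Among genes on the annotated autosomal rows, 7 of 11421 held it (0.0613%). Of the 51 set-apart higher genes with a RefSeq promoter, 1 held it, Txnip itself. The pattern was chosen for its known role at Txnip, so this match is no test of enrichment. A part of glucose in the Txnip difference was not tested. Sequences and positions are from RefSeq, build GRCm38.p6. A match is a run of letters, and no binding was measured.

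Fam111a, which encodes a protease that in human cells acts at replication forks and restricts some viruses, followed the same order of clones. Its signal was 7.44 and 7.89 in clone 1, 7.05 and 6.93 in clone 5, 5.13 and 5.60 in clone 6, and 5.65 and 4.89 in clone 2. MPSVII ES gave 5.17 and 5.81, B6 Blu ES 6.13, and MEF 7.62 and 7.88. Clones 1 and 5 thus lay near MEF, and clones 2 and 6 near MPSVII ES. The difference was 1.79 ± 0.25 (adjusted p = 0.0232), and against clone 5 alone it was 0.68 (adjusted p = 0.617).

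Slfn9, a member of the Schlafen family, measured 4.29 and 4.51 in clone 1, 3.89 and 3.40 in clone 5, 2.55 and 2.44 in clone 6, and 2.10 and 2.62 in clone 2. It differed by 1.56 ± 0.21 (adjusted p = 0.022). Ppp2r3c, a regulatory subunit of protein phosphatase 2A, differed by 1.60 ± 0.23 (adjusted p = 0.0238), from 5.14 and 5.34 in clone 1 to between 3.02 and 4.77 in the other clones. Tia1, an RNA-binding protein of stress granules, differed by 1.51 ± 0.21 (adjusted p = 0.022). In all 3 genes clone 5 came closest to clone 1.

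Also among the 12 largest increases were 2 genes known from white blood cells and platelets, Mmp12 and Pf4. Mmp12, the macrophage elastase, came next in size after Txnip, and Pf4 encodes the chemokine platelet factor 4. Mmp12 measured 6.38 and 6.79 in clone 1, 5.23 and 5.04 in clone 5, 4.62 and 3.63 in clone 6, and 3.99 and 4.50 in clone 2. MEF stood at 11.17 and 11.05, and MPSVII ES at 5.13 and 4.77. Clone 1 was above every other pluripotent array and far below MEF. The difference was 2.08 ± 0.26 (adjusted p = 0.019).

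Pf4 measured 5.34 and 5.29 in clone 1 and 3.52 to 4.41 on the 6 arrays of the other clones, with 8.39 and 8.39 in MEF. MPSVII ES, at 5.19 and 5.12, lay at the level of clone 1. The difference was 1.45 ± 0.21 (adjusted p = 0.0238). The mean of the 9 macrophage markers given above was 4.1561 and 4.1629 in clone 1, just above the highest other clone array, replicate 1 of clone 2 at 4.1558. After the intensity-dependent normalization described below, it was 4.18 and 4.10 in clone 1 and 3.89 to 4.41 in the other clones, so that the groups overlapped. Of the 17 measured genes of a longer blood and macrophage list, Mmp12 alone was called (0.576% of all rows), 5 had an unadjusted p under 0.05 by limma, all higher (15.2% of all rows in either direction), and the median of the list was 0.11 against 0.04 for all 14408 rows. The part of feeder or other MEF RNA in these 2 genes was not tested.

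In a further group the difference was carried by a low value in clone 2. Ivns1abp, a kelch-repeat protein first found as a binder of an influenza protein, measured 8.69 and 8.99 in clone 1, 8.37 and 8.18 in clone 5, 8.21 and 8.37 in clone 6, and 5.53 and 5.71 in clone 2. The difference was 1.45 ± 0.16 (adjusted p = 0.0169), made of 3.22 to clone 2 (adjusted p = 9.34e-05) and of 0.57 and 0.55 to clones 5 and 6 (adjusted p = 0.471 and 0.366). Clones 5 and 6 lay a little below clone 1, and clone 2 alone stood far off.

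Plac8, a small cysteine-rich protein first described in placenta, was also low in clone 2, with 9.32 and 9.67 in clone 1, 8.56 to 9.17 in clones 5 and 6, and 6.61 and 6.58 in clone 2 (1.43 ± 0.17, adjusted p = 0.0169). The MPSVII ES arrays gave 6.98 and 6.92, close to clone 2, and B6 Blu ES gave 8.03. MEF, at 9.60 and 9.89, lay near clone 1, and the part of feeder RNA was not tested. Armh4 (1.41 ± 0.17, adjusted p = 0.0169), Gca, the calcium-binding protein grancalcin (1.41 ± 0.23, adjusted p = 0.0331), and Omd, a proteoglycan of bone matrix (1.49 ± 0.24, adjusted p = 0.0311), complete the 12 largest increases. For Omd the nearest clone was clone 6, at 5.08 and 5.23 against 5.84 and 6.21 in clone 1.

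The 4 genes set apart as lower were Pramel7, Dazl and 2 odorant receptor genes. Pramel7, a PRAME family member known to hold mouse ES cells in a ground state, measured 3.43 and 3.83 in clone 1, 7.72 and 7.66 in clone 2, 4.98 and 5.02 in clone 5, and 4.56 and 4.56 in clone 6. MPSVII ES stood at 4.83 and 4.72, B6 Blu ES at 3.68, and MEF at 2.75 and 1.62. Clone 1 was the lowest clone and lay with B6 Blu ES, while clone 2 was the highest of all lines. The difference was -2.12 ± 0.25 (adjusted p = 0.0169), with -4.06 to clone 2 (adjusted p = 0.000227), -1.37 to clone 5 (adjusted p = 0.259) and -0.93 to clone 6 (adjusted p = 0.346).

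Dazl, an RNA-binding regulator of translation in germ cells, measured 4.02 and 3.72 in clone 1, 5.67 and 5.85 in clone 2, 5.19 and 5.14 in clone 5, and 5.07 and 5.23 in clone 6. MPSVII ES gave 5.00 and 4.85, B6 Blu ES 3.45, and MEF 2.54 and 3.04. The arrays of the other clones and MPSVII ES lay between 4.85 and 5.85, and clone 1 fell below them. The difference was -1.49 ± 0.17 (adjusted p = 0.0169), and the single differences were -1.89 to clone 2 (adjusted p = 0.00131), -1.30 to clone 5 (adjusted p = 0.133) and -1.28 to clone 6 (adjusted p = 0.0501).

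The odorant receptor genes Olfr1006 (-1.50 ± 0.23, adjusted p = 0.0248) and Olfr510 (-1.01 ± 0.17, adjusted p = 0.0358) were dim, at 1.93 and 1.68 and at 1.50 and 1.62 in clone 1. Both lay far below the medians of the arrays, and both belong to a large family of similar genes whose probes can share sequence. Pramel6, a near copy of Pramel7, was called lower (-1.16 ± 0.21, adjusted p = 0.0396) but not set apart. It measured 3.31 and 3.62 in clone 1, 3.28 to 3.82 in clones 5 and 6, and 6.89 and 6.32 in clone 2. Clone 1 thus shared its level with clones 5 and 6.

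**Figure D1:**
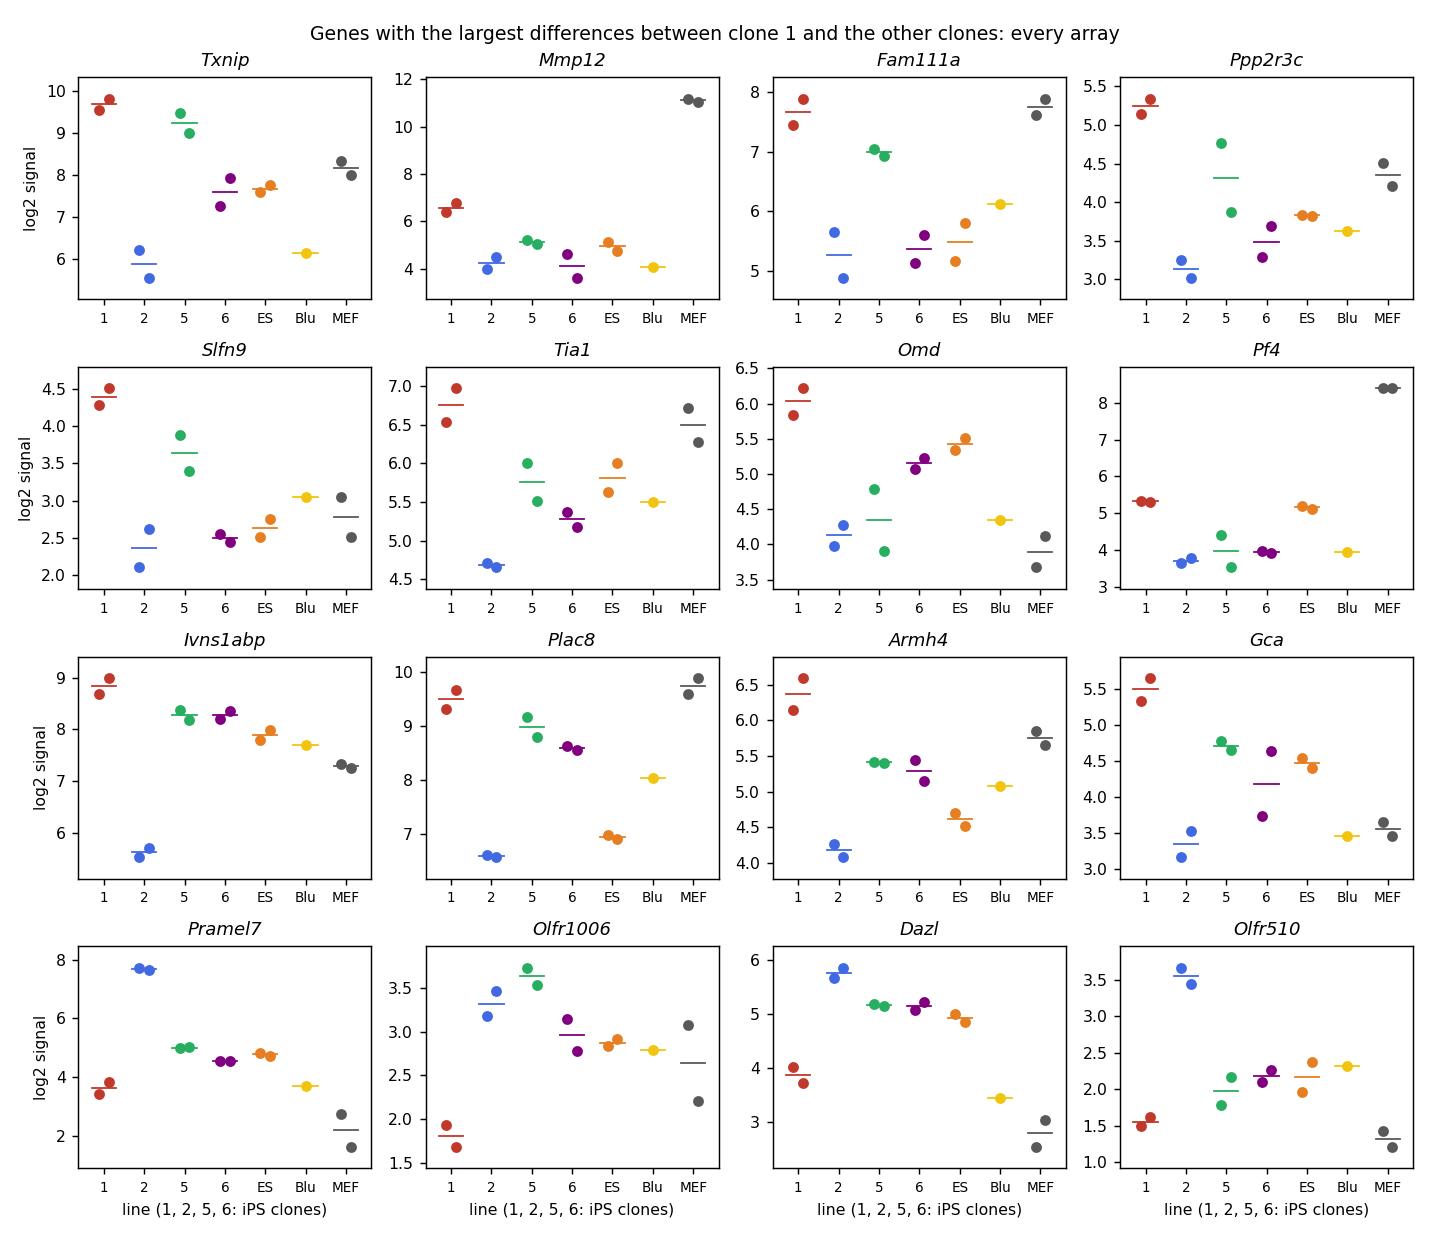
Log2 signal (y axis, a scale of its own in each panel) of the 12 genes with the largest increases and the 4 with decreases in clone 1, by line (x axis: iPS clones 1, 2, 5 and 6, MPSVII ES, B6 Blu ES and MEF). Each point is 1 array and each bar the mean of a line; clone 2 stands at the far side from clone 1 in Txnip, Ivns1abp, Plac8 and Pramel7, and clone 5 comes close to clone 1 in Txnip and Fam111a.

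The other 45 set-apart higher rows lay between 0.82 and 1.38 and are described here with genes chosen after their values were seen. They include Polk, a DNA polymerase that copies past damaged bases (1.38), Mbd4, a glycosylase of mismatched bases (1.33), Rad54b, a recombination helicase (1.30), Brip1, a helicase that binds Brca1 (1.21), Hltf, a remodeller at stalled forks (1.16), and Brca1 itself (1.04). In these 6 genes clone 2 had the lowest mean of the clones, at 4.44 to 5.37. Others were Irgm1, an immunity-related GTPase (1.29), Fgf17, a fibroblast growth factor (1.12), Apaf1, the core of the apoptosome (1.03), Clk1, a kinase of splicing factors (1.01), and Oasl2, an interferon-induced relative of the oligoadenylate synthetases (0.96). No theme was tested among them.

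Dimt1, an rRNA methyltransferase, differed from most of these rows. It measured 5.49 and 5.59 in clone 1, 4.99 and 4.89 in clone 6, 4.51 and 4.45 in clone 2, and 4.07 and 3.52 in clone 5. Clone 5 was the lowest clone here, and the difference to it was 1.75 (adjusted p = 0.0376). Dimt1 was the single set-apart row called against clone 5.

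Taking the 61 set-apart rows clone by clone, the 57 higher rows had a median difference of 1.12, made of 1.73 to clone 2, 0.95 to clone 6 and 0.66 to clone 5. All 57 were called against clone 2, 9 against clone 6 and 1 against clone 5. Clone 2 was the farthest clone in 52 of them, clone 6 in 4 and clone 5 in 1, and the nearest clone was clone 5 in 41 and clone 6 in 16. Since these rows were chosen by their difference from the mean of all 3, the counts describe them and are no test.

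**Figure D2:**
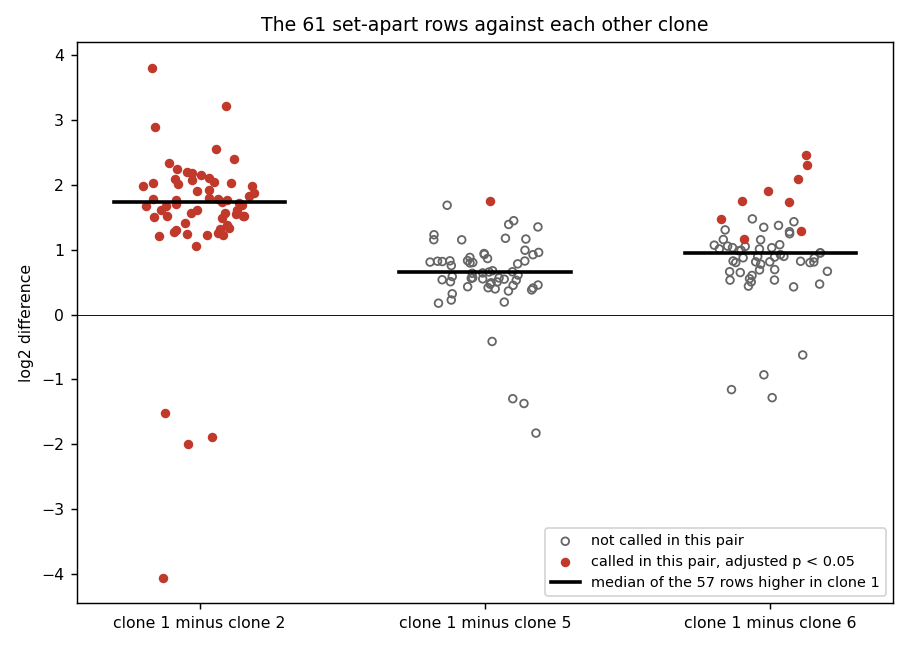
Log2 difference (y axis) of clone 1 to clone 2, clone 5 and clone 6 (x axis) for the 61 set-apart rows, 1 point a row. Filled points passed the test in that pair (adjusted p under 0.05) and bars are medians of the 57 higher rows, 1.73, 0.66 and 0.95; most filled points lie in the pair with clone 2.

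Over all 14408 rows the pairs were as uneven. Clone 1 minus clone 2 called 1683 rows (11.7%), 1584 higher (11%) and 99 lower (0.687%). Clone 1 minus clone 5 called 3 rows (0.0208%), all higher, and clone 1 minus clone 6 called 25 (0.174%), 11 higher (0.0763%) and 14 lower (0.0972%). The number of rows called by limma in all 3 pairs in the same direction was 0 (0%). At an unadjusted p under 0.05 in each pair there were 153 higher rows (1.06%) and 23 lower (0.16%).

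The 3 rows that passed against clone 5, named after their values were seen, were Dimt1 (1.75), Tefm, a mitochondrial transcription elongation factor (1.60), and the odorant receptor Olfr692 (1.53). Tefm measured 6.19 and 6.33 in clone 1, 4.83 and 4.50 in clone 5, 6.00 and 6.06 in clone 2, and 7.20 and 7.55 in clone 6. Olfr692 measured 4.73 and 4.80 in clone 1 and 3.19 and 3.29 in clone 5, with 5.02 to 5.32 in clones 2 and 6. In both it was clone 5 that lay below the other clones.

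Among the 11 rows called higher against clone 6, 9 were set-apart rows, among them Mmp12 (2.46), Fam111a (2.30), Txnip (2.10) and Slfn9 (1.90). The other two, named after their values were seen, were Edf1, a transcriptional coactivator (2.57), and Obox6, an oocyte-type homeobox gene (2.49). Obox6 measured 5.51 and 6.12 in clone 1, 6.33 and 6.19 in clone 2, 5.63 and 5.37 in clone 5, and 3.58 and 3.08 in clone 6. There clone 1 shared the level of clones 2 and 5.

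The 14 rows lower than in clone 6 include, also named after their values were seen, Ppp1r10, a regulator of protein phosphatase 1 (-2.64), Ints6, an Integrator subunit (-1.82), Sirt1, a protein deacetylase (-1.69), and Cdk12, a kinase of RNA polymerase II (-1.54). Ppp1r10 measured 4.24 and 4.37 in clone 1, 4.64 and 4.13 in clone 5, 5.74 and 5.29 in clone 2, and 6.64 and 7.24 in clone 6. The differences to clone 5 in these 4 genes were -0.08, 0.60, 0.16 and -0.04, and none passed the test.

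Across rows the arrays of clone 1 correlated with each other at r = 0.983, with clone 5 at 0.964 to 0.979, with clone 6 at 0.966 to 0.977, and with clone 2 at 0.940 to 0.950. These r compare whole profiles, and the rows behind them do not count as replicates. The ranges for clones 5 and 6 overlapped, and clone 2 was the least like clone 1.

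The difference also ran with the brightness of a row. With the rows in 8 equal groups by mean signal over all arrays, the median difference between clone 1 and the other clones was -0.11 in the dimmest group and 0.38 in the brightest. Against clone 2 it ran from -0.16 to 0.72, against clone 5 from -0.12 to 0.22, and against clone 6 from -0.02 to 0.19. Of the 83 called rows, 30 and 28 lay in the 2 brightest groups. In all 3 pairs bright rows tended to be higher and dim rows lower in clone 1, most steeply against clone 2.

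An intensity-dependent normalization was therefore applied, a loess curve of each array against the mean of all arrays. It brought the medians of the 8 groups to between -0.03 and 0.05. After it 60 rows were called (0.416%), 43 higher (0.298%) and 17 lower (0.118%), and 52 were set apart (0.361%), 41 higher (0.285%) and 11 lower (0.0763%). Calls for the other clones moved more, to 816 for clone 2 (5.66%), 294 for clone 5 (2.04%) and 242 for clone 6 (1.68%). The pairs then called 815 rows against clone 2 (5.66%), 564 higher (3.91%) and 251 lower (1.74%) in clone 1, 7 against clone 5 (0.0486%) and 143 against clone 6 (0.993%), and again 0 in all 3 pairs. Both clone 1 arrays lay beyond all 6 others in 880 rows above (6.11%) and 646 below (4.48%).

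**Figure D3:**
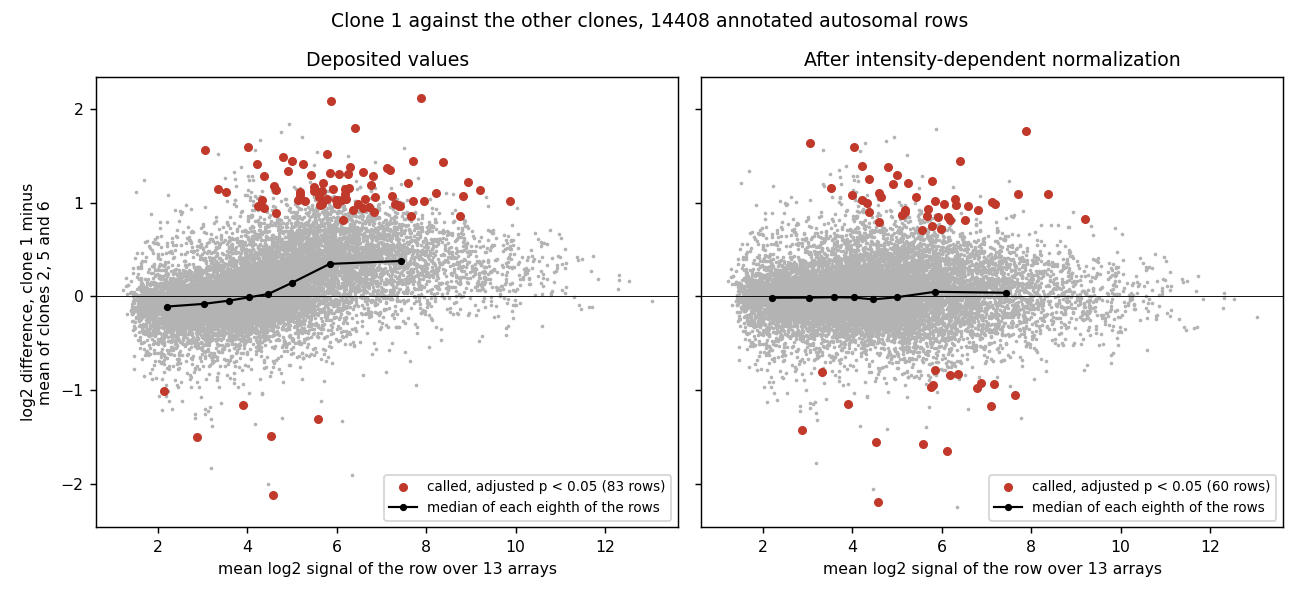
Log2 difference of clone 1 minus the mean of clones 2, 5 and 6 (y axis) against the mean log2 signal over 13 arrays (x axis) for 14408 rows, as deposited (left) and after the intensity-dependent normalization (right). Red points were called (83 and 60 rows) and the black line joins the medians of 8 equal groups; it rises from -0.11 to 0.38 on the left and stays near 0 on the right.

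All 57 higher rows kept their sign after this step, with a median of 0.90 in place of 1.12, and 30 of them were still set apart. Of the 4 lower rows 3 were. Txnip was 1.77 ± 0.15 (adjusted p = 0.00361), Slfn9 1.63 ± 0.23 (adjusted p = 0.0252), Pramel7 -2.19 (adjusted p = 0.0132) and Dazl -1.55 (adjusted p = 0.0252). Mmp12 (1.78 ± 0.32, adjusted p = 0.0515) and Olfr510 (-0.92, adjusted p = 0.0628) lost the call among the 16 named genes.

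Dmc1, Ufsp2 and Usp45, higher, and Ppp1r10, lower (-1.57, adjusted p = 0.00361 by limma), were called but not set apart as deposited. After normalization they were set apart. A further 15 rows, not called as deposited, were set apart after normalization, named here after their values were seen. Higher were Ccne1, cyclin E1 (0.81), Helb, a DNA helicase (0.84), Aqr, an intron-binding helicase (0.97), Pcca, a subunit of propionyl-CoA carboxylase (0.87), Fbxl4, a mitochondrial F-box protein (1.08), Ccl9, a chemokine (1.03), Apobec1, the editing enzyme of apolipoprotein B mRNA (0.79), and Ppfibp1, a liprin (0.70). Lower were Rpl39l, a ribosomal protein form best known from testis (-1.65), the RNA host gene Snhg5 (-1.17), Jam2, an adhesion molecule (-1.05), Slc12a2, an ion cotransporter (-0.94), Ipmk, an inositol phosphate kinase (-0.93), Epc2 (-0.83) and Kmt5b, a histone methyltransferase (-0.78). Rpl39l measured, as deposited, 5.31 and 5.72 in clone 1 and 6.05 to 7.96 in the other clones. After normalization too, the number of rows called in all 3 pairs was 0 (0%), with 149 higher and 51 lower rows at unadjusted p under 0.05 in each pair, and against clones 5 and 6 together 1 row was called (0.00694%), a lower one.

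The reprogramming factors and the reference genes of pluripotency did not pass the test. Pou5f1 measured 7.69 and 7.98 in clone 1 and 6.84 to 8.15 in the other clones (0.42 ± 0.20, adjusted p = 0.363, and 0.06 after normalization). Nanog measured 9.27 and 9.42 against 8.57 to 9.47 (0.29 ± 0.23, adjusted p = 0.649). Sox2 was 0.03, Klf4 -0.03 and Myc -0.01 (adjusted p = 0.971, 0.981 and 0.993). In each of these 5 genes the arrays of clone 1 overlapped those of the other clones, and the signs of Nanog (-0.05) and Sox2 (-0.31) turned after normalization.

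Gusb, which encodes beta-glucuronidase, was dim in clone 1 at 3.75 and 4.25, against 3.47 to 3.81 in the other clones (0.35 ± 0.25, adjusted p = 0.606). Nnt, the transhydrogenase of mitochondria whose gene is damaged in some B6 substrains, differed by 0.57 ± 0.20 (adjusted p = 0.211). The genes of the imprinted Dlk1 to Dio3 region, whose silencing is known from some iPS lines, gave 0.07 for Dlk1, -0.04 for Rtl1 and -0.25 for Dio3 (adjusted p = 0.905, 0.953 and 0.734). Dlk1 measured 5.06 and 4.91 in clone 1, inside the 4.74 to 5.15 of the other clones.

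Of 599 measured genes on 32 lists of cell types and pathways, 4 were called higher and 1 lower, 0.835% against 0.576% of all rows. At an unadjusted p under 0.05 limma gave 94 higher and 14 lower genes, 18% against 15.2% of all rows. The 5 called genes lay in 4 lists, and the other 28 lists held no call.

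In the list of meiotic and germ cell genes, 1 of 18 rose and 1 fell, with a median of -0.04. Dazl fell, as given above, and Dmc1, the meiotic recombinase, rose by 1.30 ± 0.22 (adjusted p = 0.0352). Dmc1 measured 6.67 and 7.19 in clone 1, 6.73 and 6.43 in clone 5, 6.11 and 6.01 in clone 6, and 4.62 and 3.91 in clone 2. Replicate 1 of clone 5 lay above replicate 1 of clone 1, so Dmc1 was not set apart as deposited. After normalization it was set apart (1.06, adjusted p = 0.0449 by limma). The 2 germ line genes thus went opposite ways.

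In the interferon and antigen presentation list, 1 of 23 genes rose, Oasl2 (0.96 ± 0.18, adjusted p = 0.0491), with a median of 0.17 and of 0.21 after normalization. It measured 4.92 and 5.08 in clone 1, 4.68 and 4.56 in clone 5, and 3.60 to 3.90 in clones 2 and 6. After normalization its difference was 0.93 (adjusted p = 0.0678). By clone, the median of the list was 0.28 to clone 2, 0.30 to clone 6 and 0.01 to clone 5. The median was thus smallest in the pair with clone 5.

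Promoters of 3 set-apart genes that are not among the measured genes of this list are printed, chosen after their values were seen. They are printed because they hold a match to the core of the interferon-stimulated response element. The pattern was GAAA followed by any 2 bases and GAAA again, searched on both strands of the 250 bases before the start. Capitals mark the matches. The pair of matches in Irgm1 overlap, and those of Slfn9 and Trim30a are on the opposite strand, where GAAA reads TTTC. The 120 bases before the start of Oasl2, the called member of the list, held 0 matches.
Irgm1, chr11:48871421-48871540, minus strand: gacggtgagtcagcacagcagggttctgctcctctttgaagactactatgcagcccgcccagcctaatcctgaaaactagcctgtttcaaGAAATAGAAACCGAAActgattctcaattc
Slfn9, chr11:82991831-82991950, minus strand: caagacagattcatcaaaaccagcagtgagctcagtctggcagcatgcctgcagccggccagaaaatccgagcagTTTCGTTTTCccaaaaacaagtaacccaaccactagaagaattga
Trim30a, chr7:104465194-104465313, minus strand: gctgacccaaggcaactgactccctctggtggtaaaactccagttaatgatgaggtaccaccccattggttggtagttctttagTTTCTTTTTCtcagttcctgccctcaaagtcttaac
Of the 51 set-apart higher genes with a promoter in the RefSeq table, 4 held the pattern (7.84%), these 3 and Brip1, against 320 of 11421 genes on the annotated autosomal rows (2.8%) and 7 of 20 on the interferon list (35%). Irgm1 measured 4.61 and 5.42 in clone 1, 4.29 and 4.10 in clone 5, and 3.04 to 3.74 in clones 2 and 6, and Trim30a, a tripartite motif protein, measured 4.68 and 4.74, 4.12 and 4.43, and 3.48 to 3.59. In these 2 genes and in Slfn9 clones 1 and 5 were the upper pair. The set-apart genes were chosen on these same arrays, and those printed after their values were seen. The shares of genes with the pattern are therefore no test of enrichment. A match says nothing of binding.

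In the list of metallothioneins and redox genes Txnip was the 1 of 20 that rose. The metallothioneins Mt1 (0.03) and Mt2 (-0.14) did not pass (adjusted p = 0.985 and 0.807). In the blood and macrophage list it was Mmp12, as above.

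Among the lists without a call, several medians were positive as deposited and smaller after normalization. The mitotic cell cycle list had a median of 0.47 and 0.14 after normalization, oxidative phosphorylation 0.46 and 0.11, glycolysis 0.42 and 0.25, the epithelial list 0.39 and 0.24, and DNA methylation and chromatin 0.32 and 0.03. By limma, 14 of 27 mitotic genes and 12 of 25 genes of oxidative phosphorylation had an unadjusted p under 0.05, all higher, beside 15.2% of all rows in either direction. That share covers rows of every brightness. On every array the mean signal of both lists lay in the range of the 2 brightest of the 8 groups of rows given above. These 2 groups had median differences of 0.35 and 0.38 as deposited. By clone, the mitotic median was 0.93 to clone 2, 0.45 to clone 6 and 0.13 to clone 5, and after normalization 0.28, 0.31 and -0.06. For oxidative phosphorylation it was 0.73 to clone 2, 0.33 to clone 6 and 0.26 to clone 5, and after normalization 0.23, 0.18 and 0.11. In both lists the median was smallest in the pair with clone 5. Their largest members were Ccne1 (1.17 ± 0.24, adjusted p = 0.0604) and Ndufa9, a subunit of complex I (0.96 ± 0.31, adjusted p = 0.164). After normalization the medians of glycolysis and of the epithelial list were the highest of all lists with more than 1 measured gene. Clone 5 was the clone nearest to clone 1 in both: after normalization the glycolysis median was 0.36 to clone 2, 0.32 to clone 6 and 0.0085 to clone 5, and the epithelial median 0.60, 0.27 and -0.05. Ldhb, a lactate dehydrogenase (1.10 ± 0.25, adjusted p = 0.0753), and Aldoc, an aldolase (0.84 ± 0.22, adjusted p = 0.108), had the largest values in glycolysis, where clone 6 exceeded clone 1 in Ldhb with 9.28 and 9.78 against 9.01 and 9.49.

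The fibroblast and matrix list lay on the other side, with a median of -0.20 and of -0.35 after normalization over 33 genes. Mgp, an inhibitor of calcification in matrix, measured 3.38 and 4.36 in clone 1, 4.79 and 4.17 in clone 5, 7.07 and 5.49 in clone 6, and 7.08 and 6.04 in clone 2 (-1.90 ± 0.42, adjusted p = 0.072). Postn, the matrix protein periostin, measured 3.69 and 3.78, 3.77 and 3.45, 6.14 and 4.34, and 6.00 and 5.44 in the same order of clones (-1.12 ± 0.37, adjusted p = 0.179). Clones 1 and 5 were low and clones 2 and 6 high in both genes, with an SE too large for a call. The list as a whole did not show this split. Its median was -0.36 to clone 2, -0.12 to clone 5 and -0.07 to clone 6, and after normalization -0.51, -0.19 and -0.12.

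Among pluripotency lists, the core list had a median of 0.19 and of -0.09 after normalization, and the naive network 0.17 and -0.06. Utf1, a chromatin factor of ES cells (0.67 ± 0.20, adjusted p = 0.148), and Tdgf1, the Nodal co-receptor (0.62 ± 0.28, adjusted p = 0.328), had the largest differences in the core list. The primed epiblast list had a median of -0.15, with Dnmt3b, a de novo DNA methyltransferase, at 0.66 (adjusted p = 0.196) and the homeobox gene Otx2 at -0.61 (adjusted p = 0.255). Jam2 of the naive list was called lower after normalization. The scaling turned the sign of the median in the core and naive lists.

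In Phlda2 and Slbp large differences stood beside a large spread between arrays. Phlda2, an imprinted gene that limits placental growth, measured 5.26 and 6.73 in clone 1 and 3.19 to 5.55 in the other clones (1.67 ± 0.44, adjusted p = 0.105). Slbp, the histone stem-loop binding protein, measured 6.95 and 7.31 in clone 1, 6.53 to 7.32 in clones 5 and 6, and 1.68 and 3.95 in clone 2 (1.50 ± 0.47, adjusted p = 0.159). Its difference came from clone 2. Of the 28 listed histone genes and regulators Slbp was the 1 matched by its symbol to an annotated autosomal row. Rows with several symbols or under another name of a gene were not searched.

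**Figure D4:**
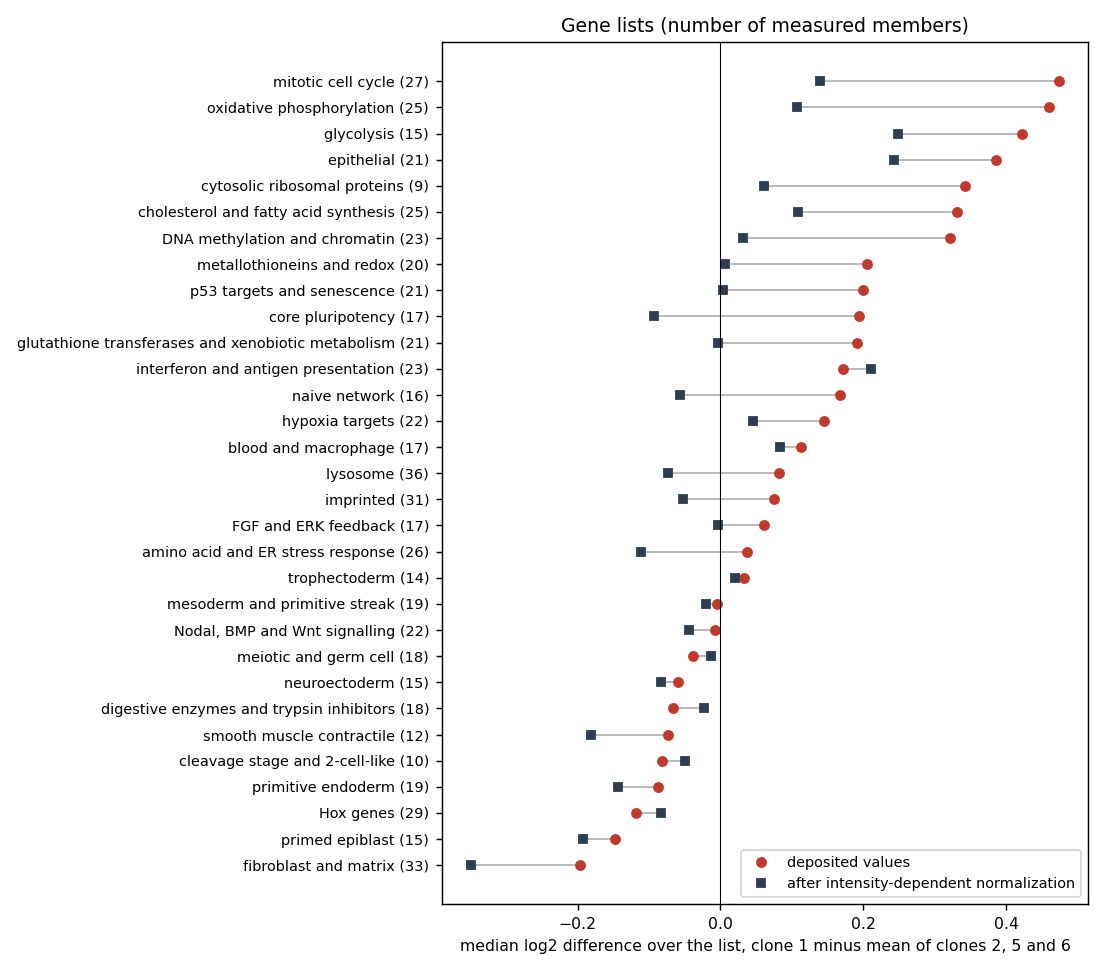
Median log2 difference of clone 1 minus the mean of clones 2, 5 and 6 (x axis) for 31 lists (y axis, number of measured genes in brackets), as deposited (circles) and after the intensity-dependent normalization (squares); the list with 1 measured gene is not drawn. The mitotic list moves from 0.47 to 0.14 and oxidative phosphorylation from 0.46 to 0.11, and the fibroblast list lies lowest at -0.20 and -0.35.

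By chromosome, the median difference lay between 0.0047 and 0.0786 over the 19 autosomes, and between -0.0213 and 0.0148 after normalization. The 57 higher set-apart rows lay on 18 of the autosomes.

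Against the landmarks, both MPSVII ES arrays lay below both clone 1 arrays in 55 of the 57 higher rows and the B6 Blu ES array in 57. In 39 rows both MEF arrays were lower than clone 1, and in 5 both were higher. In all 4 lower rows both MPSVII ES arrays lay above clone 1, and the B6 Blu ES array did in 2 of them. These rows were chosen for extreme values in clone 1, so the counts describe them and are no test.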

How the data were processed

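The deposited table of the authors holds log2 signal for 13 arrays, made with Affymetrix Expression Console and RMA, per the submitters' processing notes; versions are not given in the sources used here. Of 23238 rows, 6577 without a gene in the platform annotation and in a range of low row numbers were left out as controls, and 16661 were tested. Of the rest, 14884 single-symbol rows were matched by Entrez number to RefSeq (GRCm38.p6), used for chromosomes and promoters. In R 4.3.3, limma 3.58.1 fitted 1 mean per line to all 13 arrays (lmFit, eBayes without trend; 6 residual degrees of freedom, median residual SD 0.252), with Benjamini-Hochberg adjustment over 16661 rows and a threshold of 0.05. The intensity-dependent normalization was a loess fit (span 0.3). The number of arrays, 2 per line and 1 for B6 Blu ES, limits the precision. Named were the 12 largest increases and decreases among set-apart rows (4 decreases exist), up to 3 called members of each of 32 lists (2 where none was called), and 10 fixed genes; where a gene had several rows, the brightest was used. Members, lists and tests were chosen with earlier results of these data known. The fit was tested on simulated data. Alternatives were the replicate block, leaving out each of 8 clone arrays, other normalizations and filters, other variance models, and other sets of arrays. Signal files and single probes were not used here.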

Additional observations from a re-analysis of the deposited data

How the results depend on the processing

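The counts of calls moved with most settings, while the named genes among the 16 largest differences kept their direction in every setting tried. These genes were chosen by their differences on the same arrays, so the kept direction is no test. All 16 lost the call with all rows of the table and with clone 2 left out of the other side. In the order all rows higher, all rows lower, set apart higher and set apart lower, limma gave 87, 10, 57 and 4 as reported. Median centring gave 263, 24, 180 and 11, array weights 296, 29, 178 and 14, and leaving out the dimmest rows 237, 17, 142 and 6. Quantile normalization gave 54, 35, 45 and 13, and the intensity-dependent normalization 49, 26, 41 and 11. The share of higher calls thus moved from 87 of 97 to 49 of 75 with the intensity-dependent normalization. All rows of the table, controls included, gave 0, 0, 0 and 0 (1830 annotated autosomal rows at an unadjusted p under 0.05), clone means as samples 0, 0, 0 and 0 (386 unadjusted), clone 2 left out of the other side (the fit unchanged) 0, 0, 0 and 0 (1012 unadjusted), and the clone arrays fitted alone 0, 1, 0 and 1. The intensity-dependent normalization with clone 2 left out of the other side, chosen after seeing the data, gave 0, 1, 0 and 1. Leaving out 1 clone array gave 0 to 97, 0 to 11, 0 to 73 and 0 to 6; calls fell to 0 without either array of clone 1, to 9 and 3 without clone 5 replicate 2, and to 5 and 2 without clone 6 replicate 1.

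Annotated autosomal calls for clones 1, 2, 5 and 6 against the others were 83, 1708, 49 and 163. They were 0, 1172, 16 and 31 with all rows of the table, 281, 852, 49 and 200 with array weights, 1, 1355, 11 and 62 with the clone arrays alone, 0 each with clone means as samples, 218, 1927, 74 and 211 without dim rows, 60, 816, 294 and 242 with the intensity-dependent normalization, 249, 1985, 163 and 242 with median centring, and 72, 1273, 321 and 248 with quantile normalization. A minimum log2 difference of 1 left 774 for clone 2. Leaving out 1 clone array gave 0 to 93, 491 to 1800, 0 to 62 and 0 to 147. The cause of these shifts was not tested.

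Replicate numbers did not pair the arrays in a common direction: correlations of same-numbered deviations lay between -0.241 and 0.24. They were positive among clone 1, clone 6 and MPSVII ES (0.24, 0.083 and 0.11) and among clone 2, clone 5 and MEF (0.178, 0.077 and 0.128). Every pair across these sets was negative (-0.241 to -0.047). Replicate 2 had the wider interquartile range in clone 1, clone 6 and MPSVII ES, and the narrower range in clone 2, clone 5 and MEF. The cause was not tested. With the replicate block the counts were 18, 4, 15 and 3, and by clone 21, 1497, 24 and 99.

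Signs turned in genes that were not called in the test as reported. With the intensity-dependent and the quantile normalization these were Sox2 (-0.31 and -0.32), Nanog (-0.0463 and -0.0133), Dlk1 (-0.0696 and -0.0857) and Rtl1 (0.0293 and 0.037), and with the former also Pla2g1b (-0.0155). Leaving out 1 array gave -0.0912 to 0.1518 for Sox2, -0.2313 to 0.168 for Klf4, -0.0965 to 0.0815 for Myc and -0.0021 to 0.1469 for Dlk1. Leaving clone 2 out of the other side turned Acta2 (0.0317), Krt18 (-0.18), Rpl4 (-0.0147), Sox2 (-0.25), Myc (0.11) and Rtl1 (0.0087). With the intensity-dependent normalization added it turned Utf1 (-0.0378), Krt18 (-0.35), Rpl4 (-0.18), Slbp (-0.0727), Pou5f1 (-0.0134), Sox2 (-0.42), Myc (0.019) and Rtl1 (0.0605). Dim rows have little signal over background, and no detection calls were used here.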
